A study of Mus musculus with 15 samples.

Results

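Forskolin and rosiglitazone, a pair of compounds used to turn fat cells towards a heat-producing, mitochondria-rich state, were compared directly after 3 days of treatment. The comparison set the 3 forskolin libraries (FSK3D) against the 3 rosiglitazone libraries (Rosi3D), 6 of the 15 RNA-seq libraries of the series. Its members were all genes that passed an expression filter, 14421 of the 24421 in the table of counts, and each was tested anew from the counts. Of the genes left out, 4584 had no count in any library and 5416 had too few.

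The cells of every library, called MAP, were mouse adipocyte progenitors that had been immortalized and were differentiated into adipocytes in culture. At confluence the cells had received insulin, isobutylmethylxanthine (an inhibitor of the phosphodiesterases that break down cAMP), dexamethasone and 1 µM rosiglitazone for 2 days, and then insulin with 1 µM rosiglitazone for 2 more days. Every group, vehicle included, had therefore met rosiglitazone before the treatment. At day 7 to 8 the FSK3D cells received forskolin and the Rosi3D cells received rosiglitazone, in each case for 3 days. The 3 vehicle libraries serve as a common reference. The sources used here give neither the doses of both treatments nor the harvest time of the vehicle cells, so effects of the 2 compounds are set side by side at unknown relative strength. The results describe 1 cell line. The labels do not say whether the 3 libraries of a group were separate cultures, so p-values reflect a spread between libraries that may be technical.

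Forskolin activates adenylyl cyclase, the enzyme that makes cAMP, and so enters the pathway that noradrenaline uses in fat cells through the beta-adrenergic receptors. cAMP activates protein kinase A, which drives lipolysis and phosphorylates CREB, a transcription factor that binds the cAMP response element in promoters. Rosiglitazone binds PPARγ, the nuclear receptor that builds and maintains the adipocyte programme of lipid uptake and storage, as a dimer with RXR on a repeated AGGTCA element. Both routes are known to raise genes of brown and beige fat, the thermogenic kinds of adipocyte that carry the uncoupling protein UCP1.

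Total counts ran from 14056200 to 31079564 in FSK3D, from 20984580 to 56282582 in Rosi3D and from 26388586 to 31089519 in vehicle. Rn45s, the precursor of ribosomal RNA, took 4.77% ± 0.890 (SD, n = 3) of the counts in FSK3D, 6.63% ± 0.534 in Rosi3D and 8.53% ± 0.0385 in vehicle, and it was called lower in FSK3D than in Rosi3D (log2 -0.49 ± 0.12 (SE), edgeR adjusted p = 0.00493). That call was lost with the 6 libraries fitted alone. Ribosomal RNA had been removed from the RNA of all libraries, and its part in these shares was not tested. With FSK3D S12 the other FSK3D libraries differed more than with each other, with chi-square values per degree of freedom at 10.6 and 11.2 against 3.12 for S10 and S11. In Rosi3D these values were 4.70 to 7.55. They came from unscaled counts and rise with depth at a given relative difference, and S12 was the deepest FSK3D library. Pearson's r of log2 CPM across genes, which are not independent replicates, did not set S12 apart. It was 0.995 for S10 and S11, 0.996 for S10 and S12 and 0.994 for S11 and S12, and 0.995 to 0.997 in Rosi3D. All 8 adipocyte markers looked for were tested, and their summed level was 11795 to 13084 CPM (read counts made comparable between libraries by TMM scaling) in FSK3D, 10271 to 10762 in Rosi3D and 7977 to 8857 in vehicle. Much of this sum was Cfd alone, with means of 7203 CPM in FSK3D, 2054 in Rosi3D and 4698 in vehicle. Of the 8 markers 5 (62.5%) were called lower in FSK3D than in Rosi3D, beside 20.7% of all tested genes. Another 2 (25%) were higher, beside 22.5%, and the median log2 was -0.26. Of the markers of other cells, 3 of 12 for macrophages passed the filter (summed 4.89 to 5.35 CPM in FSK3D, 2.45 to 3.99 in Rosi3D and 4.17 to 4.66 in vehicle, with C1qa and Tyrobp at 0 in both treated groups), and 5 of 10 for endothelium (in the same order 14.6 to 14.7, 18.3 to 21.3 and 11.5 to 14.9, with Tie1 and Emcn at 0). None of 9 for lymphocytes passed, 8 of 10 for Schwann cells and neurons did (24.9 to 26.2, 21.7 to 25.1 and 18.6 to 20.4), and for epithelium only Krt19 did (33.1 to 33.8, 27.1 to 31.2 and 84.3 to 90.0). Of 9 markers of skeletal muscle only Acta1 passed (3.21 to 4.16, 29.3 to 30.7 and 3.81 to 4.26), with Myh1, Myh4 and Ckm at 0. Among the endothelial markers, Egfl7 has exons that overlap Agpat2, and the counting cannot separate them here. Egfl7 differed by log2 -1.22 between FSK3D and Rosi3D and Agpat2 by -1.29, so the endothelial sum is uncertain. The part of all these markers in the results was not tested. In bulk RNA, fewer cells of a type and less RNA per cell cannot be told apart.

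After 3 days the expression states differed widely. At an adjusted p under 0.05 (edgeR quasi-likelihood test, Benjamini-Hochberg), 3238 genes (22.5% of those tested) were higher in FSK3D than in Rosi3D and 2978 (20.7%) were lower. At least 2-fold differences were fewer, 649 genes higher (4.50%) and 398 lower (2.76%). Most calls were thus small, with a median size of 0.44 on the log2 scale among called genes and a median of 0.00 over all tested genes. For 4379 genes the 95% interval of the difference lay within 0.32 on the log2 scale in either direction. Of the 14421 tested genes, 3756 had every FSK3D library above every Rosi3D library and 3613 every one below. Separation without overlap was thus common. The test drew its spread from all 15 libraries, whose common biological coefficient of variation was 5.97%. Against vehicle, 25.9% of tested genes were higher and 27.0% lower in FSK3D, and 28.6% higher and 32.0% lower in Rosi3D. All counts of called list members below are to be read beside these shares over all genes. Some genes sit in several lists, so the counts of different lists are not independent. Cpt1b, for example, is listed under PPARγ targets, thermogenic genes and fatty acid oxidation.

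**Figure D1:**
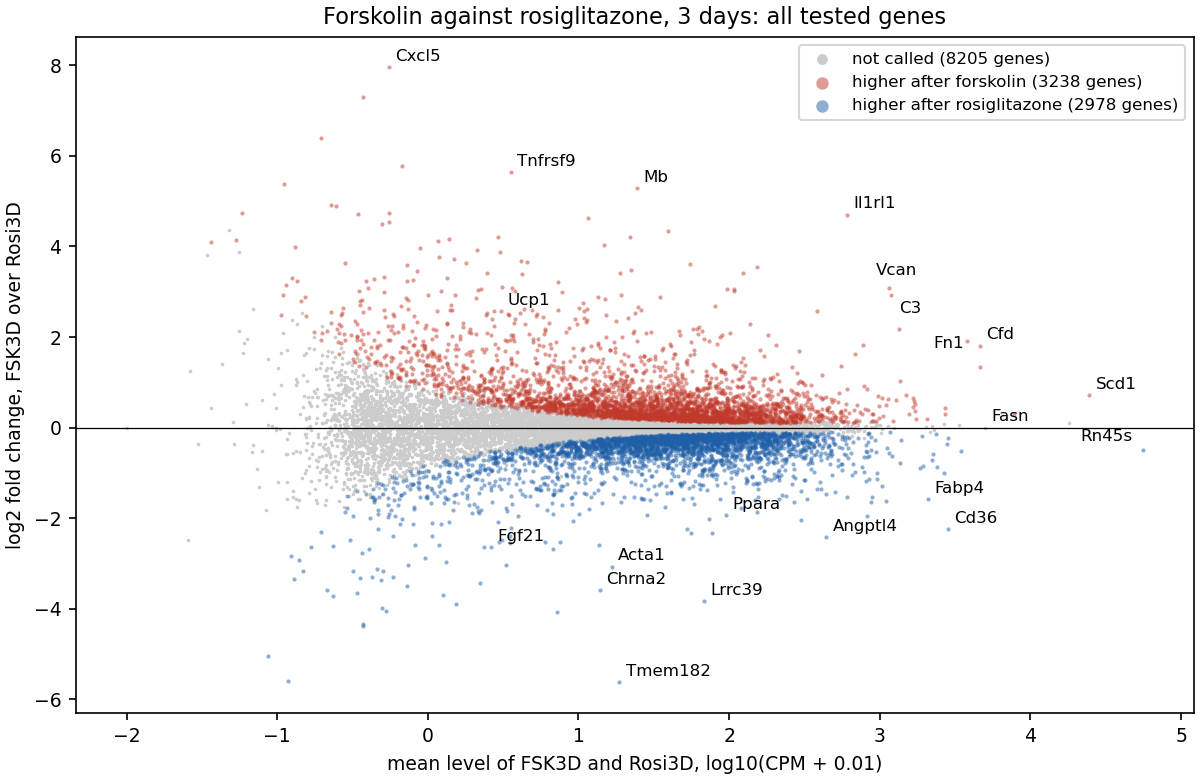
Each point is 1 of the 14421 tested genes, by mean level of FSK3D and Rosi3D (x, log10 of CPM plus 0.01) and log2 fold change of FSK3D over Rosi3D (y); red marks the 3238 genes called higher after forskolin, blue the 2978 called higher after rosiglitazone and grey the rest. The largest fold changes belong to genes of low and middle level, while Il1rl1, Vcan, C3, Cfd and Cd36 combine a high level with a large difference.

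The 12 genes chosen for the largest rises in FSK3D relative to Rosi3D included several receptors and ligands of cytokine signalling. The choice, here and for the largest falls below, took only genes whose FSK3D and Rosi3D libraries did not overlap. Il1rl1, the receptor of interleukin-33, lies at chr1:40429570-40465415 (+ strand) on GRCm38. It stood at 1253, 1185 and 1063 CPM in the FSK3D libraries, at 42.1, 42.6 and 50.2 in Rosi3D and at 567, 518 and 577 in vehicle. The treated groups lay on opposite sides of vehicle, without overlap. The difference between them was log2 4.70 ± 0.09 (SE, edgeR adjusted p = 5.98e-17). Tnfrsf9, which encodes the co-stimulatory receptor 4-1BB and is used as a marker of beige fat, was at 8.08, 6.85 and 5.95 CPM in FSK3D and at 0.141, 0.186 and 0.0779 in Rosi3D. Its vehicle libraries, at 0.123, 0.328 and 0.147 CPM, overlapped Rosi3D. The summed counts of Tnfrsf9 gave a ratio of 51.1 (exact binomial 95% interval 24.4 to 128, counting error only). Csf2rb, the beta chain shared by receptors of several blood cell growth factors, was at 40.1, 48.8 and 35.8 CPM in FSK3D against 2.15, 3.02 and 1.63 in Rosi3D (log2 4.21 ± 0.22, edgeR adjusted p = 6.68e-09). It was highest in FSK3D, lowest in Rosi3D and between these in vehicle.

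Mb, which encodes the oxygen-binding muscle protein myoglobin (chr15, exons overlapping Apol6 on the other strand), stood at 41.2, 49.1 and 52.2 CPM in FSK3D against 1.06, 1.07 and 1.63 in Rosi3D and 1.67, 2.66 and 3.82 in vehicle (log2 5.28 ± 0.23, edgeR adjusted p = 7.75e-13). Every FSK3D library was thus far above all libraries of the other 2 groups. Wfdc21, a small secreted protein with a whey acidic protein domain, was at 23.1, 20.3 and 23.1 CPM against 0.774, 1.02 and 1.01 (log2 4.63 ± 0.16). Ptprf, a receptor tyrosine phosphatase, gave a ratio of 19.9 (11.8 to 36.2) from 405 counts over the FSK3D and 30 over the Rosi3D libraries. Lgi4 gave 18.7 (8.48 to 50.04), but its exons overlap Fxyd3 and the counting cannot separate them here. Some genes in this group were nearly or wholly without counts in Rosi3D. Cxcl5, a chemokine that attracts neutrophils, had 74 counts over the FSK3D libraries and 0 over Rosi3D, so it was at least 14.1-fold higher in FSK3D by the lower limit of the exact binomial 95% interval. With 3 halved counts put in for Rosi3D as a floor the ratio was 18.2. Atp6v0d2, a subunit of the vacuolar proton pump, had 86 against 2 counts (ratio 63.4, 10.8 to 2562). Tnfsf11, the osteoclast-inducing ligand RANKL, had 80 against 4 (ratio 29.5, 7.65 to 252). Atp6v0d2 differed in where vehicle stood, at 1.30, 1.02 and 0.660 CPM beside 1.47, 1.64 and 0.827 in FSK3D, while Tnfsf11 in vehicle was at 0, 0.131 and 0.0734.

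By difference in level rather than fold, the largest gains in FSK3D over Rosi3D included enzymes of lipid handling and secreted proteins (CPM does not correct for gene length, so long genes weigh more here). Scd1, the desaturase that makes monounsaturated fatty acids, stood at 30218, 29958 and 31667 CPM in FSK3D and at 18688, 18770 and 18559 in Rosi3D (log2 0.71 ± 0.05). Cfd, the complement protease adipsin made by mature fat cells, was at 6629, 7479 and 7502 CPM against 2164, 2137 and 1860 (log2 1.81 ± 0.08, edgeR adjusted p = 7.75e-13). Fn1, the matrix protein fibronectin, followed at 6120, 5773 and 5983 CPM against 1651, 1687 and 1432 (log2 1.91 ± 0.06). Lrp1, an endocytic receptor of lipoproteins and proteases, was at 6644, 6395 and 6988 CPM against 2724, 2757 and 2449 (log2 1.34 ± 0.05). No library of Rosi3D reached the lowest of FSK3D for any of these 4 genes, as for 3756 of the 14421 tested genes. The same rule also took Il1rl1, Vcan, C3, Fbln2, Lpl and Bgn, described with their groups.

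In the opposite direction, the 12 genes chosen for the largest falls in FSK3D relative to Rosi3D included Acta1 and Cpt1b, best known from muscle. Tmem182, a transmembrane protein gene at chr1:40805601-40856887 (+ strand), stood at 1.18, 0.548 and 0.477 CPM in FSK3D, at 33.2, 33.2 and 43.5 in Rosi3D and at 3.80, 5.61 and 4.07 in vehicle (FSK3D over Rosi3D log2 -5.62 ± 0.22, edgeR adjusted p = 1.14e-17). FSK3D was thus below vehicle and Rosi3D above it, and neither overlapped vehicle. Lrrc39, a leucine-rich repeat protein gene whose exons overlap Trmt13, was at 8.44, 7.33 and 10.2 CPM against 126, 123 and 131, with vehicle at 17.0, 18.6 and 17.6 (log2 -3.84 ± 0.10). Acta1, the skeletal muscle actin gene and a close relative of Acta2 in sequence, was at 4.16, 3.22 and 3.21 CPM against 29.3, 30.7 and 29.6 and was 3.95, 3.81 and 4.26 in vehicle (log2 -3.07 ± 0.13). FSK3D and vehicle overlapped for Acta1, and Rosi3D stood apart from both. Chrna2, a nicotinic acetylcholine receptor subunit described in beige adipocytes, was at 2.49, 1.78 and 2.00 CPM in FSK3D and at 26.1, 26.8 and 23.9 in Rosi3D (log2 -3.59 ± 0.17). Its vehicle libraries were at 0.463, 0.722 and 0.294 CPM, so both treated groups lay above vehicle and Rosi3D much further.

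Arhgef37, a guanine nucleotide exchange factor gene, was at 0.938, 0.206 and 1.05 CPM in FSK3D and 15.2, 13.2 and 12.6 in Rosi3D (log2 -4.06 ± 0.30). Fgf1, a growth factor linked to PPARγ in fat tissue, was at 0.938, 0.685 and 0.541 CPM against 5.79, 5.34 and 6.50 (log2 -3.04 ± 0.27, edgeR adjusted p = 1.38e-11), with vehicle between them at 1.88, 1.74 and 2.02. For 6 of the other largest falls the FSK3D counts were low and ratios of summed counts, Rosi3D over FSK3D, are given instead. Fam107a gave 15.3 (7.26 to 38.7), the ATP-gated channel gene P2rx1 13.9 (6.41 to 36.8) and Pkdrej, of the polycystin family, 11.3 (6.48 to 21.6). Cpt1b, the muscle form of the enzyme that admits fatty acids into mitochondria, gave 11.1 (4.14 to 42.0), the carboxypeptidase gene Cpb1 9.88 (3.43 to 42.4) and the kelch family gene Klhl30 8.63 (3.66 to 25.7). Klhl30 stood out among these for its reference level, since vehicle, at 1.23, 1.28 and 1.21 CPM, was near Rosi3D at 1.48, 1.53 and 0.895 and above FSK3D at 0.204, 0.137 and 0.127.

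**Figure D2:**
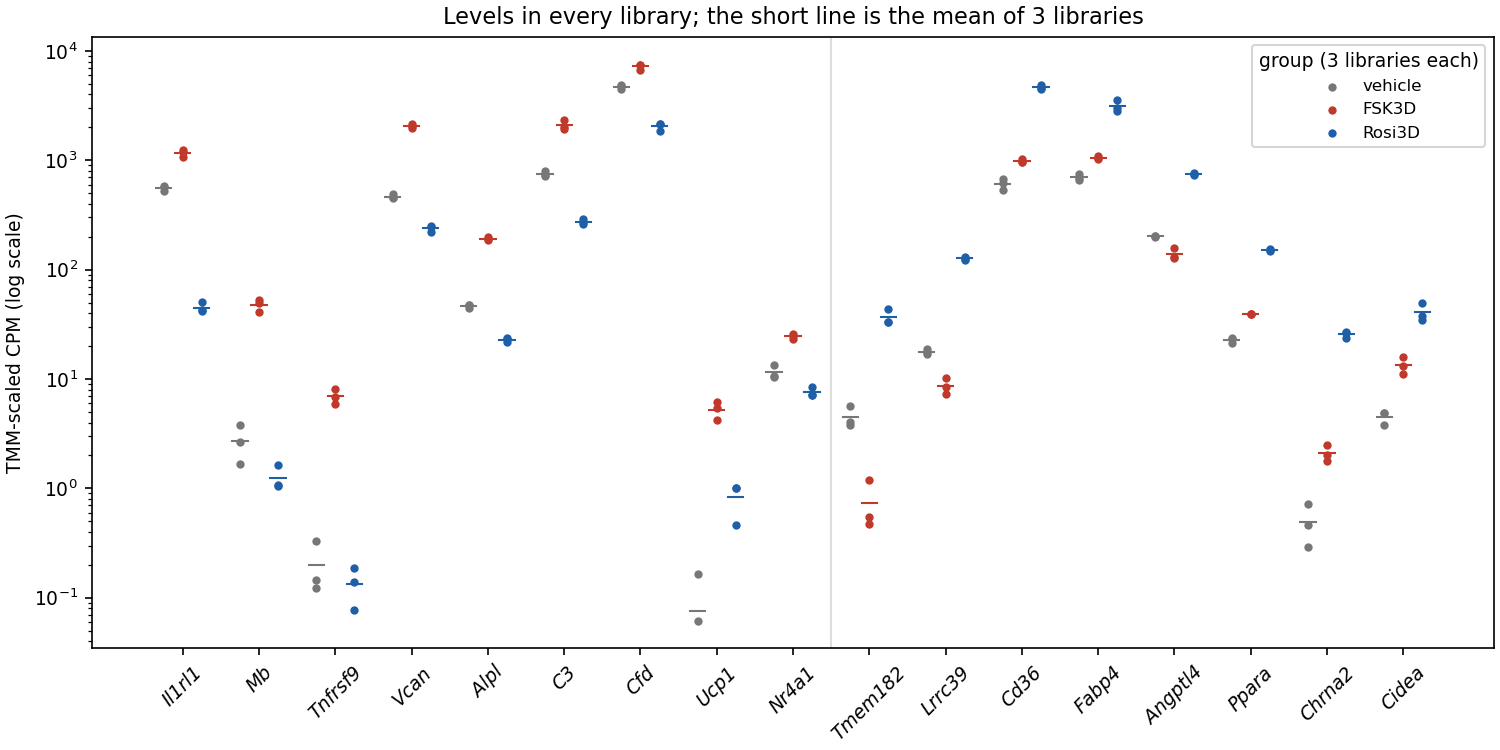
Level of 17 genes (x) in each library (points) as TMM-scaled CPM on a log axis (y), for vehicle (grey), FSK3D (red) and Rosi3D (blue), with the mean of 3 libraries as a short line; a library without a count is not drawn (1 vehicle library for Ucp1). Left of the divider, every FSK3D library lies above every Rosi3D library, from Il1rl1 to Nr4a1, and right of it the order is the opposite.

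Targets of the cAMP pathway stood higher in FSK3D. Of 38 genes listed as cAMP and CREB targets, 36 were tested, 22 were higher in FSK3D than in Rosi3D and 5 lower, with a median log2 of 0.73 beside 0.00 for all tested genes. The orphan nuclear receptors of the NR4A family, early responders to cAMP, were among them. Nr4a1 was at 23.4, 24.9 and 25.8 CPM in FSK3D, 7.20, 7.16 and 8.45 in Rosi3D and 13.4, 10.6 and 10.4 in vehicle (log2 1.71 ± 0.10, edgeR adjusted p = 3.87e-14). Nr4a3 was at 4.00, 5.55 and 3.85 CPM against 0.809, 1.49 and 0.623 (log2 2.23 ± 0.35). For both genes FSK3D lay above and Rosi3D below all vehicle libraries. Crem, a repressor that cAMP itself induces, was at 23.8, 20.2 and 21.4 CPM against 16.1, 14.7 and 14.8 (log2 0.52 ± 0.08), and here both treated groups lay above vehicle (9.88, 10.5 and 11.7). The clock repressor Nfil3 was at 24.8, 20.2 and 26.7 CPM against 13.1, 13.3 and 12.8 (log2 0.89 ± 0.10). Areg, the growth factor amphiregulin, had only 5 counts in FSK3D and 0 in Rosi3D, both within the floor, so no fold is given.

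Of the 5 members that were lower, 2 came under the rule for named genes. Ppargc1a, the coactivator PGC-1α that drives mitochondrial biogenesis, was at 49.4, 50.8 and 47.7 CPM in FSK3D and 104, 95.9 and 105 in Rosi3D (log2 -1.05 ± 0.08, edgeR adjusted p = 4.72e-12). Irs2, an adaptor of the insulin receptor, was at 107, 109 and 117 CPM against 209, 203 and 209 (log2 -0.90 ± 0.05), with vehicle at 111, 109 and 112. The others were Egr1 (log2 -0.41), Dusp1 (-0.27) and Pck1 (-0.20), named after their values were seen, as were the members of other lists that are named below only to complete a count or as examples without a call. Against vehicle, 17 of the 36 targets were higher and 12 lower in FSK3D, beside 25.9% of all tested genes higher and 27.0% lower. In Rosi3D 6 were higher and 22 lower against the same vehicle libraries, beside 28.6% higher and 32.0% lower over all genes. The list's median log2 over vehicle was 0.13 in FSK3D and -0.60 in Rosi3D, and both share the vehicle libraries. By these medians, levels below vehicle in Rosi3D made up more of the direct difference than levels above vehicle in FSK3D.

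Phosphodiesterases, which degrade cAMP, were mostly higher in FSK3D, with 10 of 15 tested genes higher, 2 lower and a median log2 of 0.72. Pde4b stood at 95.6, 95.5 and 90.4 CPM against 19.8, 24.4 and 18.8 (log2 2.17 ± 0.07, edgeR adjusted p = 3.05e-20), and Pde4d at 128, 127 and 120.1 against 50.6, 55.9 and 48.0 (log2 1.28 ± 0.05). Vehicle, at 29.0, 24.6 and 28.1 and 56.3, 54.0 and 54.8 CPM, was nearer to Rosi3D for both. Pde7b was at 20.6, 17.7 and 19.3 CPM against 3.77, 4.60 and 2.76 (log2 2.38 ± 0.16), and Pde10a at 27.7, 22.6 and 26.9 against 4.91, 4.51 and 4.32 (log2 2.48 ± 0.11). The calcium-regulated Pde1b was an exception, at 14.7, 15.8 and 14.3 CPM against 46.6, 43.0 and 45.8 (log2 -1.60 ± 0.08) and Pde2a was the other (log2 -0.70 ± 0.05).

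Receptors and enzymes that make or read cAMP were less uniform, with 5 of 27 higher and 10 lower in FSK3D and a median log2 of -0.15. The share higher, 18.5%, was below the 22.5% of all tested genes, and the share lower was 37.0% beside 20.7%. The higher ones were Adra1a, Adra2a, Adcy3, Adcy7 (log2 0.32) and Prkar1a (0.33), a regulatory subunit of protein kinase A. Adrb3, the beta-adrenergic receptor typical of mouse adipocytes, was at 60.6, 68.3 and 71.0 CPM in FSK3D, 114, 137 and 120.4 in vehicle and 242, 235 and 245 in Rosi3D (FSK3D over Rosi3D log2 -1.85 ± 0.07, edgeR adjusted p = 1.23e-19). It was therefore below vehicle after forskolin and above vehicle after rosiglitazone in every library. The alpha receptors went the other way from low levels. Adra2a, which couples to an inhibitory G protein, had 97 against 15 counts (ratio 9.54, 4.39 to 24.1), and Adra1a 83 against 22 (ratio 5.56, 2.81 to 11.99). Adcy3, an adenylyl cyclase whose exons overlap Cenpo, was at 40.2, 39.9 and 35.2 CPM against 13.8, 14.1 and 13.6 (log2 1.47 ± 0.07), with vehicle at 14.4, 13.6 and 13.6.

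Promoter sequences show where the cAMP response element, the binding site of CREB, lies in these genes. The 250 bases before each RefSeq start (GRCm38.p6) were searched on both strands for the full element TGACGTCA, which is its own reverse complement, and for its short form TGACG, which the full element contains. Areg, Ldha and Suv39h2 are printed first, since they hold the full element among the named genes called higher in FSK3D. Areg was called on only 5 counts against 0, and Suv39h2 was not called without FSK3D S11. Ldha holds the element in 1 of its 2 promoter windows. Capitals mark the element, written on the gene's strand, 5′ to 3′, and CGTCA is the short form on the other strand.
Areg, chr5:91139508-91139575 (+ strand): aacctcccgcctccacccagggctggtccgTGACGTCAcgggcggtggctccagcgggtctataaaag
Ldha, chr7:46845762-46845803 (+ strand): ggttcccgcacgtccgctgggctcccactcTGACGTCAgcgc
Suv39h2, chr2:3475034-3475101 (- strand): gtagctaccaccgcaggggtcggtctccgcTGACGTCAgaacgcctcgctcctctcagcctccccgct
The next were chosen after their values were seen, Nr4a1 and Nr4a3 for the number of short elements and Ucp1 as the thermogenic gene.
Nr4a1, chr15:101266598-101266825 (+ strand): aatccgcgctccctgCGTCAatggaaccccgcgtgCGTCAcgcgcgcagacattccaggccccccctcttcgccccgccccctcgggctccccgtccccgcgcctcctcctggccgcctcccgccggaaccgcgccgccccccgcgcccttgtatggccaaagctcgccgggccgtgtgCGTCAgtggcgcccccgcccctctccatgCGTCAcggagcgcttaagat
Nr4a3, chr4:48045059-48045177 (+ strand): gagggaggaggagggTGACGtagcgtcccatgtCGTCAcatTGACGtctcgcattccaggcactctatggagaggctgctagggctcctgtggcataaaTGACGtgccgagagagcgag
Ucp1, chr8:83290171-83290235 (+ strand): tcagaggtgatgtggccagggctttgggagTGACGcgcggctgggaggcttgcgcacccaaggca
Cycs and Mdh2, mitochondrial genes that were lower in FSK3D, hold the same full element and are shown beside them.
Cycs, chr6:50566701-50566768 (- strand): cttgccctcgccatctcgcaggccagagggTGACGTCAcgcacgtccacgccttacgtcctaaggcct
Mdh2, chr5:135778492-135778559 (+ strand): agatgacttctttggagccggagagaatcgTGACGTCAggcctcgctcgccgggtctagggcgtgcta

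The stretches of Nr4a1 and Nr4a3 each hold 4 short elements and Ucp1 holds 1. Of the named genes higher in FSK3D, 67 of 96 matched a RefSeq promoter and 3 of these (4.48%) held the full element. Areg and Suv39h2, with the weak calls stated above, are among these 3. Of those lower, 80 of 108 matched and 4 (5.00%) held it, namely Cycs, Mdh2, Rpl18 and Rps9. Over all tested genes with a promoter the share was 2.96%, and over all RefSeq genes 1.77%. The short form was found in 35.8% of the named genes higher in FSK3D, 32.5% of those lower, 29.6% of all tested and 19.8% of all RefSeq genes. Over all genes called at 2-fold or more, the full element was in 11 of the 459 matched genes higher in FSK3D (2.40%) and in 1 of 282 lower (0.355%), both below the share of tested genes. The short form was in 20.3% and 17.7% of these sets. The named genes, picked in part by list, thus gave another picture than the whole sets, and no difference between shares was tested. The PPAR response element, AGGTCA repeated after 1 free base with up to 1 mismatch, was in none of these named genes in either direction. It was in 0.654% of the genes at least 2-fold higher in FSK3D, 1.06% of those lower (3 genes each) and 0.512% of tested genes. A match is a description of the sequence, not a binding site, and a promoter window holds no distant element.

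Targets of PPARγ had the lowest median log2 of the lists drawn in the plot of list shares, though a larger part of the respiratory chain and fatty acid oxidation genes was called. Of 47 listed targets 46 were in the table and 45 were tested, of which 37 were lower in FSK3D than in Rosi3D, 3 were higher and 5 were not called, with a median log2 of -0.98. Those not called were Cebpa, Acot1, Hcar1, Sult1a1 and Car4 (log2 -0.00, -0.98, -0.25, 0.36 and 0.05). In FSK3D 36 of the 45 targets were higher than vehicle and 1 was lower, beside 25.9% and 27.0% of all tested genes. In Rosi3D 42 were higher and 0 lower, beside 28.6% and 32.0% of all tested genes. The comparison is therefore mostly between levels above vehicle and levels further above it. Cd36, a fatty acid translocase and a classic PPARγ target, lies at chr5:17781690-17888801 (- strand). It stood at 969, 964 and 1020 CPM in FSK3D, 4501, 4533 and 4917 in Rosi3D and 534, 677 and 619 in vehicle (FSK3D over Rosi3D log2 -2.24 ± 0.08, edgeR adjusted p = 1.08e-12). Fabp4, the carrier of fatty acids in adipocyte cytosol, was at 1052, 1026 and 1085 CPM against 3029, 2816 and 3575, with vehicle at 666, 756 and 684 (log2 -1.57 ± 0.12). Both genes had the same order, vehicle lowest and Rosi3D highest, with no overlap.

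Angptl4, a secreted inhibitor of lipoprotein lipase, did not share that order. It was at 127, 129.9 and 159 CPM in FSK3D, 205, 202 and 198 in vehicle and 752, 726 and 759 in Rosi3D (FSK3D over Rosi3D log2 -2.42 ± 0.06, edgeR adjusted p = 6.71e-22), so FSK3D was the lowest group. Aqp7, the glycerol channel, was at 56.6, 49.6 and 55.5 CPM against 176, 176 and 202 (log2 -1.77 ± 0.08), and FSK3D overlapped vehicle (51.4, 62.3 and 52.9). Ephx2, an epoxide hydrolase, was at 24.4, 25.8 and 26.7 CPM against 129, 132 and 123 (log2 -2.32 ± 0.07). Low-level targets showed larger ratios of summed counts, Rosi3D over FSK3D. The retinol-binding protein gene Rbp7 had 69 against 2 counts (ratio 23.4, 3.93 to 950), and Fabp3 gave 6.31 (3.43 to 12.8). Pdk4, which shuts pyruvate out of oxidation, was at 166, 166 and 162 CPM against 412, 421 and 472 (log2 -1.40 ± 0.06), and the acyl-CoA thioesterase gene Acot2 at 38.0, 40.8 and 40.6 against 106, 99.5 and 105 (log2 -1.38 ± 0.08).

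The 3 targets that were higher in FSK3D were Dgat2, Lpl and Orm1 (log2 0.74 ± 0.09). Dgat2, which adds the last fatty acid to triglycerides, was at 390.2, 365 and 436 CPM against 193, 185 and 202 (log2 1.04 ± 0.10, edgeR adjusted p = 1.75e-06). Lpl, the lipase that frees fatty acids from lipoproteins, was at 8800, 8735 and 8464 CPM against 7055, 6942 and 7069 (log2 0.30 ± 0.05). Both treated groups lay above vehicle for both genes (113, 153 and 134 and 4479, 5193 and 4926). Adipoq, the hormone adiponectin, differed little though it was called, at 1760, 1787 and 1791 CPM against 2032, 2028 and 2022 (log2 -0.19 ± 0.05).

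The receptors themselves split. Pparg was higher in FSK3D, at 296, 274 and 316 CPM against 183, 189.8 and 195 (log2 0.64 ± 0.07, edgeR adjusted p = 2.53e-07), and Rosi3D overlapped vehicle (185, 209 and 197). Ppara, the family member that controls fatty acid oxidation, was at 39.0, 39.4 and 39.3 CPM against 151, 148 and 153 and 21.5, 23.3 and 23.9 in vehicle (log2 -1.94 ± 0.07). Rxrg, a dimer partner, was at 13.5, 13.4 and 13.2 CPM against 25.5, 24.2 and 26.0 (log2 -0.91 ± 0.11). Ppargc1b, the sister of Ppargc1a, was at 35.7, 38.7 and 42.6 CPM against 90.1, 92.3 and 102 (log2 -1.28 ± 0.09), and the corepressor Nrip1 at 141, 143 and 149 against 247, 246 and 239.9 (log2 -0.76 ± 0.06). Over the list of PPARs, RXRs and their partners, 5 of 21 were higher in FSK3D and 12 lower, with a median log2 of -0.31. The share higher, 23.8%, was near the 22.5% of all tested genes, and the share lower was 57.1% beside 20.7%. The higher ones included Ppard (log2 0.45), Rxra (0.28) and Ncoa3 (0.21). The receptor that rosiglitazone binds thus differed in the opposite direction to most of its listed targets.

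**Figure D3:**
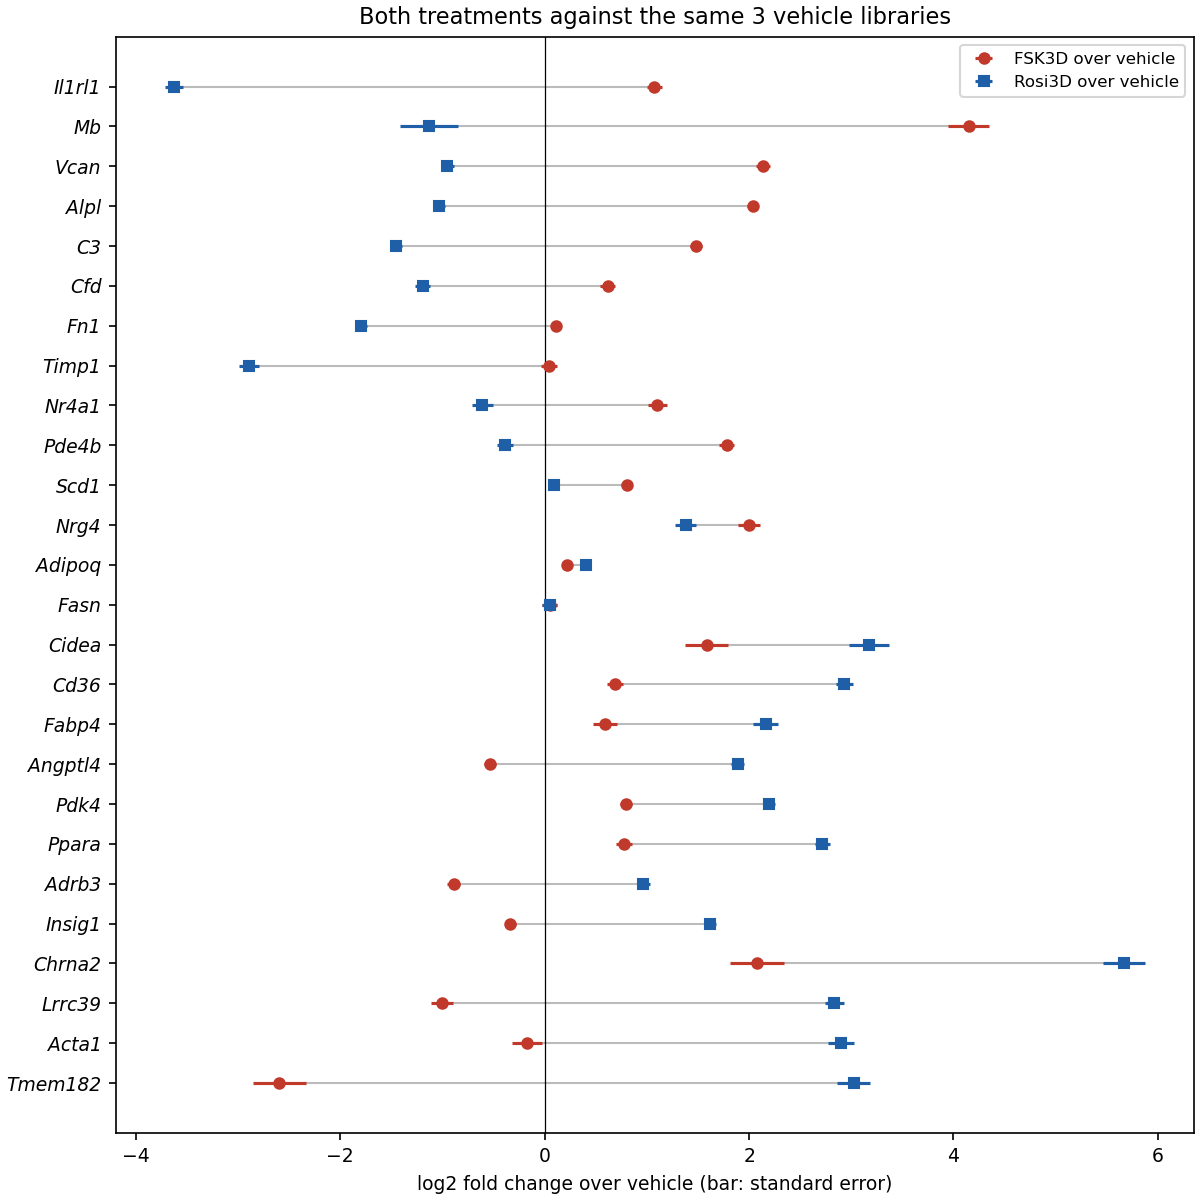
Log2 fold change over vehicle (x, bars are standard errors) of 26 genes (y) in FSK3D (red circles) and Rosi3D (blue squares); both share the 3 vehicle libraries. Il1rl1, Vcan, Alpl, C3 and Cfd lie right of 0 after forskolin and left of 0 after rosiglitazone, Angptl4, Adrb3, Insig1, Lrrc39 and Tmem182 the other way round, and Cidea, Cd36, Fabp4, Pdk4, Ppara and Chrna2 lie right of 0 in both, further after rosiglitazone.

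Among thermogenic genes Ucp1 stood apart from most of its list. Ucp1 (chr8), the proton channel that makes heat in brown fat, was at 4.24, 6.10 and 5.41 CPM in the FSK3D libraries and 1.00, 0.465 and 1.01 in Rosi3D (log2 2.57 ± 0.24, edgeR adjusted p = 7.99e-11). Vehicle was at 0.0617, 0.164 and 0 CPM, that is 7 counts in all, so both treated groups were above it and FSK3D was highest. Nrg4, a secreted factor of brown fat whose exons overlap Fbxo22, was at 47.2, 47.1 and 43.9 CPM against 27.0, 27.7 and 35.5 (log2 0.62 ± 0.10), again with both above vehicle (10.5, 12.05 and 11.997). The third member that was higher in FSK3D was Adcy3. Of the 24 tested genes of the list 15 were lower in FSK3D, with a median log2 of -0.68. Against vehicle 17 were higher and 1 lower in FSK3D, and 20 higher and 0 lower in Rosi3D.

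Cidea, a lipid droplet protein and a common marker of brown fat, was at 13.1, 11.1 and 15.8 CPM in FSK3D and 38.1, 34.9 and 49.2 in Rosi3D, with vehicle at 3.77, 4.89 and 4.92 (log2 -1.59 ± 0.18, edgeR adjusted p = 2.48e-06). Elovl3, an elongase of brown fat with 10 bases of exon overlap with Pitx3, was at 4.08, 4.18 and 3.15 CPM against 8.78, 8.60 and 12.1 (log2 -1.38 ± 0.19). Fgf21, a hormone that fat cells release in the cold, was at 0.571, 0.411 and 1.02 CPM against 4.43, 5.02 and 4.20 (log2 -2.65 ± 0.29). All 3 were lowest in vehicle on average and highest in Rosi3D. Dio2, which makes active thyroid hormone, did not pass the filter, with 20 counts over FSK3D and 8 over Rosi3D. Of 8 tested beige markers 6 were lower in FSK3D and 1 higher, with a median log2 of -0.63. Without the filter the same numbers were called among 13 markers, and the median was -0.19. The higher one was Tnfrsf9, and Cited1, a transcriptional regulator, gave a ratio of 7.46 (2.72 to 28.6) in favour of Rosi3D. The nuclear body protein gene Sp100 was at 4.04, 4.45 and 2.74 CPM against 5.44, 8.46 and 5.80 (log2 -0.82 ± 0.27). It lost its call without FSK3D S12 (adjusted p = 0.0952) or without Rosi3D S14 (adjusted p = 0.0688). Thermogenic genes that were not called include Cox7a1, Kcnk3 and Prdm16, at log2 -0.29 ± 0.16, -0.15 ± 0.06 and -0.60 ± 0.64.

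Nuclear genes of the respiratory chain were lower in FSK3D almost without exception, by a narrow range of sizes. All 35 tested subunit genes of complex I were lower, with a median log2 of -0.54, and 38 of 39 tested genes of complexes II to V, with a median of -0.58. The gene not called was Atp5l (log2 -0.10 ± 0.27). Against vehicle, 32 of the complex I genes were higher in FSK3D and 35 in Rosi3D, and none was lower in either. For complexes II to V it was 33 higher and 1 lower in FSK3D and 38 higher and 0 lower in Rosi3D. Over all tested genes 25.9% were higher than vehicle in FSK3D and 28.6% in Rosi3D. Examples of complex I were Ndufb3, at 12.97, 13.02 and 16.2 CPM against 23.0, 22.7 and 26.3 (log2 -0.76 ± 0.11), and Ndufb6, at 52.6, 51.0 and 49.0 against 80.1, 83.9 and 93.5 (log2 -0.75 ± 0.06). Ndufa8 and Ndufb9 differed by log2 -0.71 ± 0.06 and -0.69 ± 0.05. In each case the FSK3D libraries lay between vehicle and Rosi3D or overlapped vehicle.

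Cycs, the electron carrier cytochrome c, was at 50.01, 50.6 and 53.2 CPM in FSK3D, 96.1, 97.1 and 97.2 in Rosi3D and 20.7, 24.3 and 22.8 in vehicle (log2 -0.91 ± 0.06, edgeR adjusted p = 3.40e-15). Cox6a1, a cytochrome c oxidase subunit, was at 95.6, 86.3 and 102.9 CPM against 174, 158 and 184 (log2 -0.85 ± 0.08), and Uqcrq and Uqcr10, of complex III, differed by -0.83 ± 0.07 and -0.81 ± 0.09. Atp5b, the catalytic subunit of ATP synthase, was at 2831, 2701 and 3035 CPM against 4052, 3979 and 4187 (log2 -0.51 ± 0.05). Of the oxidase subunits with tissue-restricted forms, Cox6a2 was at 5.34, 5.96 and 6.30 CPM against 14.3, 11.4 and 11.7 (log2 -1.10 ± 0.17) and Cox8b at 8.77, 9.59 and 10.4 against 16.2, 13.1 and 14.99 (log2 -0.63 ± 0.14). None of the 13 mitochondrially encoded mRNAs is covered by the table.

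The TCA cycle, which feeds the chain, followed the same direction, with 24 of 27 tested genes lower in FSK3D, 2 higher and a median log2 of -0.54. Cs, citrate synthase, was at 1281, 1268 and 1380 CPM against 2343, 2386 and 2512 (log2 -0.88 ± 0.05), and Pcx, pyruvate carboxylase, at 1643, 1637 and 1815 against 2778, 2748 and 2803 (log2 -0.71 ± 0.05). Mdh2, the malate dehydrogenase of mitochondria, was at 366, 355 and 415 CPM against 686, 653 and 702 (log2 -0.85 ± 0.05), and Dlat, a pyruvate dehydrogenase subunit, differed by -0.91 ± 0.06. The 2 that were higher were the pyruvate dehydrogenase kinases Pdk1 (log2 0.69 ± 0.06) and Pdk3 (log2 0.83 ± 0.07), while Pdk4 of the same family was lower. Genes of the mitochondrial ribosome and protein import were lower in 21 of 34 cases and higher in 3 (Mrpl13, Tomm20 and Timm50), with a median of -0.29. Mrpl12, a ribosomal subunit, was at 53.5, 48.0 and 58.9 CPM against 90.8, 85.9 and 95.7 (log2 -0.75 ± 0.07), and Timm44, Timm17a and the chaperone Hspd1 differed by -0.50 ± 0.05, -0.48 ± 0.07 and -0.47 ± 0.06.

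Fatty acid oxidation in mitochondria was lower in FSK3D for 25 of 26 tested genes, with a median log2 of -0.68 and no gene higher. Acad10 was the gene not called (log2 0.18 ± 0.09). Against vehicle 22 were higher in FSK3D and all 26 in Rosi3D, beside 25.9% and 28.6% of all tested genes. None was lower in either. Hadhb, a subunit of the trifunctional protein, was at 87.4, 92.0 and 93.9 CPM against 205, 199 and 242 (log2 -1.24 ± 0.07, edgeR adjusted p = 1.86e-13). Acaa2, the thiolase of the last step, was at 194, 179 and 202 CPM against 431, 423 and 443 (log2 -1.17 ± 0.05), and Acsl1, which activates fatty acids, at 1698, 1635 and 1735 against 3051, 2995 and 3225 (log2 -0.87 ± 0.07). Vehicle was lowest for all 3. In peroxisomes, which shorten very long fatty acids, 13 of 25 tested genes were lower and 1 was higher, with a median of -0.24. Ehhadh, the bifunctional enzyme of that route, was at 24.5, 23.4 and 26.3 CPM against 74.6, 72.0 and 75.5 (log2 -1.58 ± 0.14, edgeR adjusted p = 7.08e-08) and Acaa1b at 127, 133 and 135 against 409, 391 and 427 (log2 -1.64 ± 0.06). Acaa1b overlaps Dlec1 and has a near-identical copy in Acaa1a, so its value is uncertain. Scp2 was the peroxisomal gene that was higher (log2 0.52 ± 0.05).

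**Figure D4:**
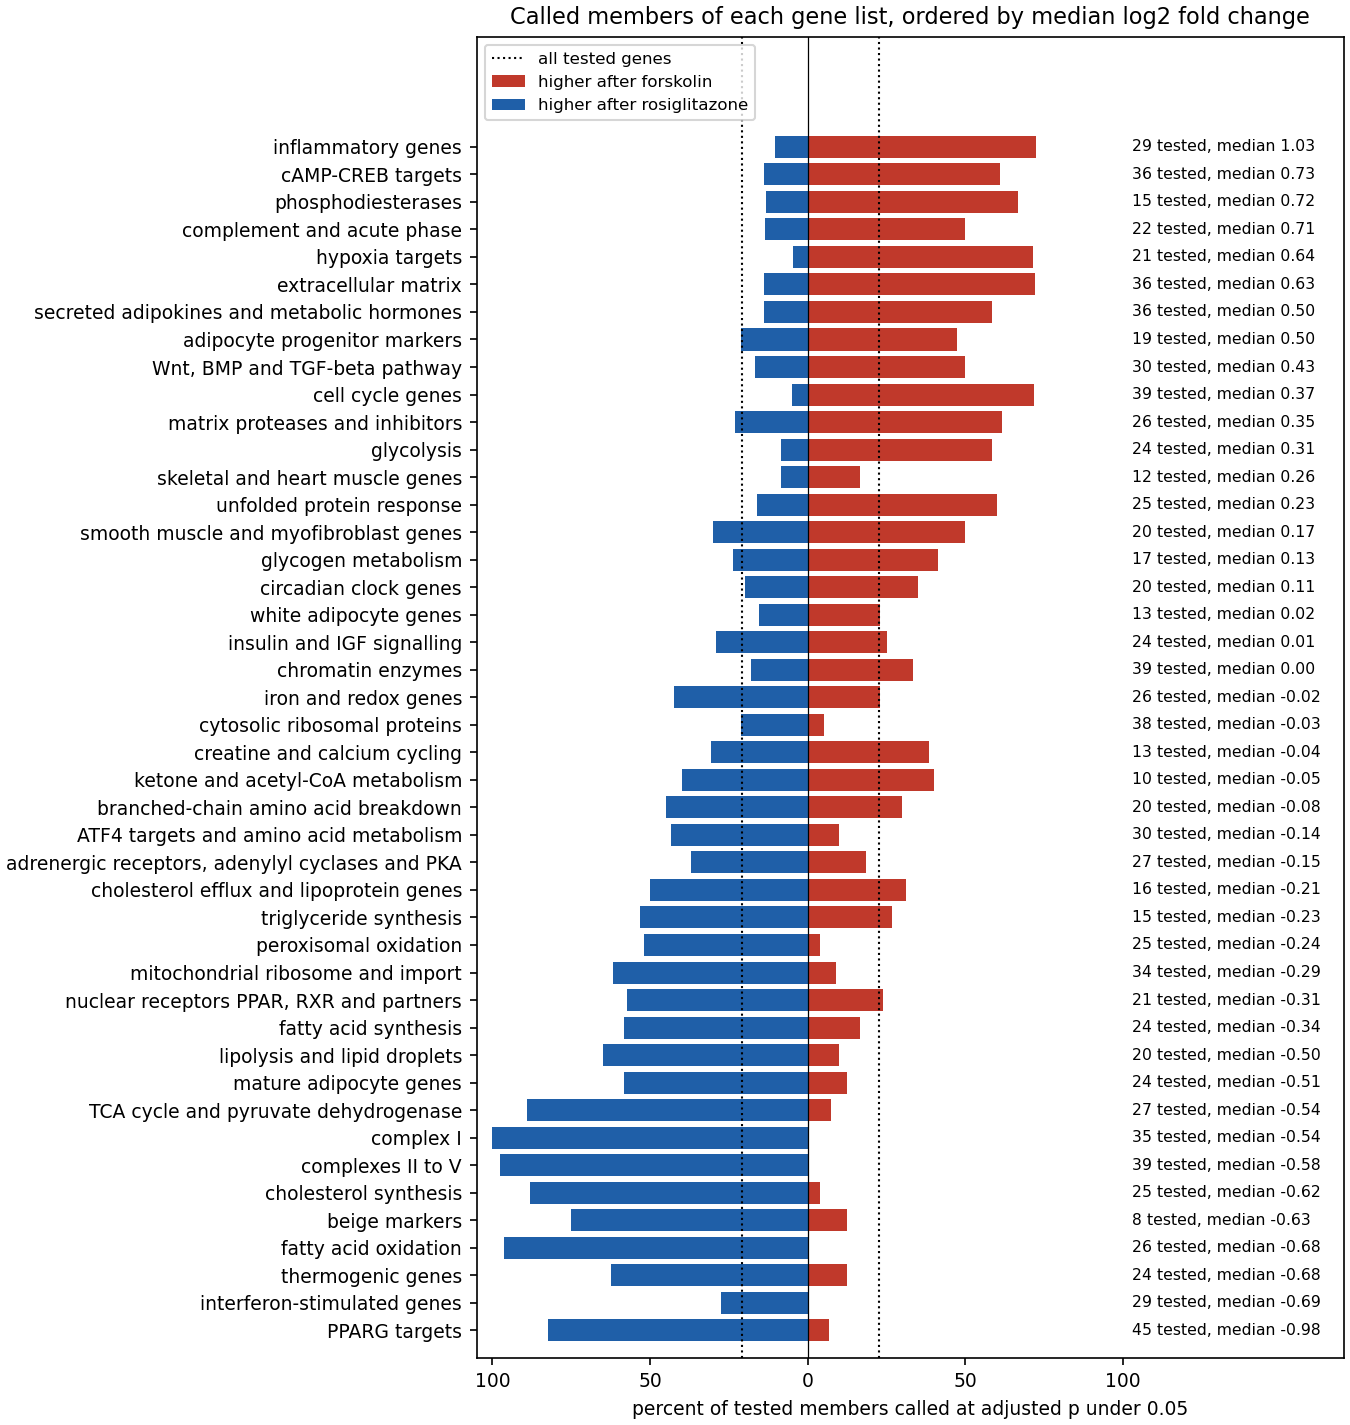
Percent of the tested members of each gene list (y) called higher after forskolin (red, right) or higher after rosiglitazone (blue, left) at an adjusted p under 0.05; lists are ordered by their median log2 fold change, printed with the number tested, and dotted lines mark 22.5% and 20.7%, the shares over all tested genes. Inflammatory genes, cAMP-CREB targets and phosphodiesterases head the forskolin side, and PPARG targets, interferon-stimulated genes, thermogenic genes and fatty acid oxidation close the other.

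Ketone and acetyl-CoA genes went both ways, with 4 of 10 tested higher in FSK3D and 4 lower. Bdh2, a hydroxybutyrate dehydrogenase, was at 9.91, 11.6 and 10.3 CPM against 5.72, 4.74 and 3.93 (log2 1.10 ± 0.13), and the acetyl-CoA acetyltransferase gene Acat2 differed by -0.68 ± 0.06. The breakdown of branched-chain amino acids, a fuel of brown fat, was also divided, with 6 of 20 higher and 9 lower and a median log2 of -0.08. Bckdhb, of the branched-chain dehydrogenase complex, was at 65.0, 63.8 and 65.6 CPM against 114, 102 and 126 (log2 -0.82 ± 0.07), and Slc25a44, the mitochondrial carrier of these amino acids, differed by -0.75 ± 0.04. The acyl-CoA dehydrogenases Ivd and Acadsb, which act later, were higher in FSK3D, at log2 0.58 ± 0.06 and 0.65 ± 0.09.

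Other heat-producing cycles showed a large difference in Alpl, the tissue-nonspecific alkaline phosphatase that hydrolyses phosphocreatine in fat cell mitochondria. Alpl (at chr4:137741733-137796384 (- strand)) was at 185, 197 and 192 CPM in FSK3D, 21.8, 23.4 and 23.6 in Rosi3D and 47.8, 47.6 and 44.8 in vehicle (log2 3.07 ± 0.06, edgeR adjusted p = 9.14e-29). FSK3D was above and Rosi3D below vehicle in every library. The creatine transporter Slc6a8 was at 141, 125 and 119 CPM against 83.5, 87.7 and 75.4 (log2 0.64 ± 0.06), with both below vehicle (195, 187 and 198). Of calcium cycling, the pump gene Atp2a3 was at 28.0, 25.3 and 32.6 CPM against 68.6, 65.1 and 73.1 (log2 -1.26 ± 0.11), and the calcium channel gene Itpr3 at 62.9, 60.1 and 60.0 against 32.7, 32.9 and 27.1 (log2 0.98 ± 0.08). Over the list, 5 of 13 tested genes were higher, with Atp2a2 (0.20) and Itpr2 (0.27) beside those described, and 4 were lower, with Gamt (-0.56), Ryr2 (-0.59) and Phospho1 (-0.44).

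Fatty acid synthesis was lower in FSK3D for 14 of 24 tested genes and higher for 4 (Scd1, Scd4, Elovl6 and Pnpla3), with a median log2 of -0.34. Acacb, the acetyl-CoA carboxylase at the mitochondrial membrane, was at 256, 269 and 291 CPM against 714, 685 and 797 (log2 -1.43 ± 0.11, edgeR adjusted p = 3.50e-07). Acss2, which makes acetyl-CoA from acetate and overlaps other genes, was at 124, 112 and 137 CPM against 359, 378 and 329.5 (log2 -1.51 ± 0.08), and the desaturase family gene Fads3 at 104, 109.5 and 109 against 327, 321 and 317 (log2 -1.58 ± 0.05). Fasn, the synthase itself, was not called, at 4673, 4610 and 5768 CPM against 5190, 4860 and 5030, with a log2 difference of -0.00 (95% interval -0.15 to 0.15). The groups overlapped for Fasn, while Scd1, described above, was higher in FSK3D.

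Triglyceride synthesis had 4 of 15 tested genes higher (Dgat2, Gpam, Lpin3 and Agpat5) and 8 lower (median log2 -0.23). Agpat2, an acyltransferase whose exons overlap Egfl7, was at 579.7, 582 and 644 CPM against 1466, 1415 and 1545 (log2 -1.29 ± 0.06), and Gpd1, which makes the glycerol backbone, at 1729, 1627 and 1961 against 3489, 3389 and 3844 (log2 -1.01 ± 0.09). Lipolysis and droplet genes were lower in 13 of 20 cases and higher in 2 (Hilpda and Pnpla3), with a median of -0.50. Plin2, a coat protein of droplets, was at 602, 569 and 638 CPM against 1341, 1316 and 1291 (log2 -1.13 ± 0.05). Plin5, the perilipin that ties droplets to mitochondria, was at 15.8, 15.8 and 16.6 CPM against 40.1, 35.3 and 49.2 (log2 -1.36 ± 0.15), and Cidec, which fuses droplets, at 620.2, 599.5 and 686 against 1257, 1277 and 1274 (log2 -0.998 ± 0.07). Plin4 differed by -0.84 ± 0.04. Vehicle was the lowest group for each of these 4 droplet genes. Mature adipocyte genes as a list were lower in 14 of 24 cases and higher in 3 (Cfd, Pparg and Lpl; median -0.51), and the genes typical of white fat had 3 of 13 higher and 2 lower (median 0.02), near the shares over all genes, or 4 lower of 14 without the filter. Of those, the activin subunit Inhbb was at 23.1, 19.8 and 22.9 CPM against 9.04, 10.9 and 10.3 (log2 1.15 ± 0.11), Rbl1 differed by 0.47 ± 0.05, Agt by 0.38 ± 0.05 and the imprinted gene Nnat by -0.66 ± 0.12.

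Cholesterol synthesis was lower in FSK3D for 22 of 25 tested genes and higher for Insig2 (log2 0.49), with a median of -0.62. Its position to vehicle differed from that of the mitochondrial lists. FSK3D had 2 genes higher and 19 lower than vehicle, and Rosi3D 12 higher and 9 lower. Insig1, the sterol-regulated brake on the SREBP transcription factors and a PPARγ target in fat, was at 329, 334 and 345 CPM in FSK3D, 387, 465 and 418 in vehicle and 1320, 1315 and 1270 in Rosi3D (FSK3D over Rosi3D log2 -1.95 ± 0.05, edgeR adjusted p = 1.17e-24). Lss, which closes the sterol rings, was at 160.3, 161 and 175 CPM against 503, 501 and 470.5 with vehicle at 203, 235 and 227 (log2 -1.57 ± 0.05). Mvd, of the mevalonate pathway, was at 21.8, 20.2 and 24.6 CPM against 57.7, 52.8 and 52.2 with vehicle at 44.5, 47.6 and 48.8 (log2 -1.28 ± 0.07), and Sc5d differed by -1.23 ± 0.06. For all 4 genes the FSK3D libraries were the lowest of the 3 groups. Cholesterol efflux and lipoprotein genes were divided, 5 of 16 higher (Lrp1, Apoc1, Npc1, Npc2 and Abca1) and 8 lower. Apoc1, an apolipoprotein, was at 47.8, 45.4 and 52.2 CPM against 19.4, 17.3 and 20.9 (log2 1.34 ± 0.08), and Apod at 1.92, 2.60 and 2.93 against 9.61, 6.88 and 7.82 (log2 -1.72 ± 0.21).

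Glycolysis differed in the opposite direction to oxidation. Of 24 tested genes 14 were higher in FSK3D and 2 lower, with a median log2 of 0.31. Slc2a1, the basal glucose transporter, was at 139, 155 and 153 CPM against 82.1, 85.0 and 71.9 (log2 0.90 ± 0.06, edgeR adjusted p = 3.12e-12). Ldha, which turns pyruvate into lactate and carries the full cAMP element printed above, was at 1245, 1269 and 1271 CPM against 798, 837 and 774 and 510.2, 546 and 596 in vehicle (log2 0.65 ± 0.05). The lactate exporter Slc16a3 differed by 0.88 ± 0.18. Slc2a4, the insulin-regulated transporter GLUT4, was instead lower, at 145, 152 and 178 CPM against 279.7, 270.4 and 312 (log2 -0.86 ± 0.14), and the other lower gene was Pfkfb1 (log2 -0.54 ± 0.07). In glycogen metabolism 7 of 17 were higher and 4 lower (median 0.13). Pygl, the liver form of glycogen phosphorylase, was at 9.59, 7.61 and 9.70 CPM against 2.74, 2.14 and 2.80 (log2 1.80 ± 0.18). The glycogen-targeting phosphatase subunits Ppp1r3c and Ppp1r3b were at log2 1.35 ± 0.12 and 1.22 ± 0.17, and Gyg, the primer of glycogen, was lower (-1.19 ± 0.05), as were Ppp1r3d and Pgm2 (-1.03 and -0.28).

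Targets of the hypoxia-inducible factors, several of them glycolytic, were higher in 15 of 21 cases and lower in 1, with a median of 0.64. Ddit4, a stress-induced inhibitor of mTORC1, was at 124, 139 and 156 CPM against 36.7, 35.5 and 32.7 with vehicle at 41.4, 44.5 and 48.8 (log2 1.996 ± 0.12, edgeR adjusted p = 3.84e-08). Ero1l, an oxidase of protein folding, was at 553, 568 and 603 CPM against 255, 260.2 and 256, both far above vehicle at 59.9, 69.8 and 67.6 (log2 1.16 ± 0.08). P4ha1 and P4ha2, the prolyl hydroxylases of collagen, were at log2 0.93 ± 0.05 and 1.24 ± 0.06. The lower gene was the peptide hormone gene Adm (log2 -0.77 ± 0.14). Insulin and IGF signalling as a list showed 6 of 24 higher (25%) and 7 lower (29.2%), beside 22.5% and 20.7% of all tested genes. The median of this list was 0.01. Its larger differences included Tbc1d4, which controls GLUT4 traffic (log2 -1.31 ± 0.06), and Igf1, at 395, 388 and 368 CPM against 198, 205 and 176 (log2 0.99 ± 0.12).

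Inflammatory genes had the highest median of the lists drawn in the plot of list shares, 1.03, with 21 of 29 tested higher in FSK3D and 3 lower (Serpina3n, Vcam1 and Nfkbia). That rank depended on single libraries. Without FSK3D S10 the median was 0.84 beside 1.01 for complement and acute phase genes, and without Rosi3D S13 it was 1.03 beside 1.10. Against vehicle 12 were higher and 9 lower in FSK3D, and 4 higher and 14 lower in Rosi3D. Lcn2, a siderophore-binding acute phase protein, was at 4.45, 4.59 and 7.86 CPM against 0.352, 0.418 and 0.467 with vehicle at 0.0617, 0.525 and 0.367 (log2 3.87 ± 0.30, edgeR adjusted p = 2.81e-09). Il1rl1 and Cxcl5 belong here too, and Saa1 had 8 counts in FSK3D and 0 in Rosi3D. The exact binomial 95% interval of its ratio starts at 0.974, so no fold is given. Saa1 lost its call without FSK3D S10 (adjusted p = 0.0585) or without Rosi3D S13 (adjusted p = 0.0757). Markers of macrophages summed to 4.89 to 5.35 CPM in FSK3D, 2.45 to 3.99 in Rosi3D and 4.17 to 4.66 in vehicle, led by Csf1r (log2 1.70 ± 0.32, exons overlapping Hmgxb3) and Cd14 (log2 0.96 ± 0.25), with no count of C1qa or Tyrobp in either group. Their part in these differences was not tested.

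Complement and acute phase genes were higher in 11 of 22 cases and lower in 3, with a median log2 of 0.71. C3, the central complement protein, was at 2004, 1943 and 2331 CPM in FSK3D, 270.5, 262 and 289 in Rosi3D and 736, 803 and 713 in vehicle (log2 2.93 ± 0.06, edgeR adjusted p = 1.17e-24). C4b was at 261, 264 and 327 CPM against 29.2, 26.4 and 16.6 (log2 3.54 ± 0.18), and Lbp, which presents bacterial lipopolysaccharide, at 13.6, 11.9 and 14.7 against 3.22, 3.53 and 2.57 (log2 2.12 ± 0.13). C3 and C4b lay above vehicle in FSK3D and below it in Rosi3D. Cp, the copper enzyme ceruloplasmin, was lower, at 26.1, 28.6 and 30.8 CPM against 54.7, 54.5 and 50.4 (log2 -0.90 ± 0.06), and below vehicle (85.6, 84.4 and 86.5) in both. The other lower ones were the protease inhibitors Serpina3n (-0.84) and Serpina3g (-1.22). Cd55, a complement inhibitor, had 43 against 9 counts (ratio 7.05, 2.50 to 25.7).

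Interferon-stimulated genes had a median log2 of -0.69, and 8 of 29 were called, all lower in FSK3D. The share lower, 27.6%, was near the 20.7% of all tested genes, and the share higher was 0% beside 22.5%. The count depended on the processing. Without the filter on low counts 26 of 30 were lower and 1 higher, and with halved counts 12 were lower; the cause was not tested. Rsad2, an antiviral enzyme, was at 6.28, 8.43 and 3.75 CPM against 18.1, 19.7 and 11.02 (log2 -1.48 ± 0.38, edgeR adjusted p = 0.00900), and Cmpk2, its neighbour in the genome, at 1.71, 2.33 and 1.24 against 4.63, 7.39 and 4.36 (log2 -1.68 ± 0.44). Ifit3 was at 23.8, 30.3 and 13.4 CPM against 62.6, 70.5 and 44.4 (log2 -1.45 ± 0.42), and Ifit3b, a near copy whose reads may be shared, differed by -1.47 ± 0.45. FSK3D S12 was the lowest and Rosi3D S14 the highest library for each of these 4. Without FSK3D S12 only 3 members were called, and without Rosi3D S14 only 4.

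**Figure D5:**
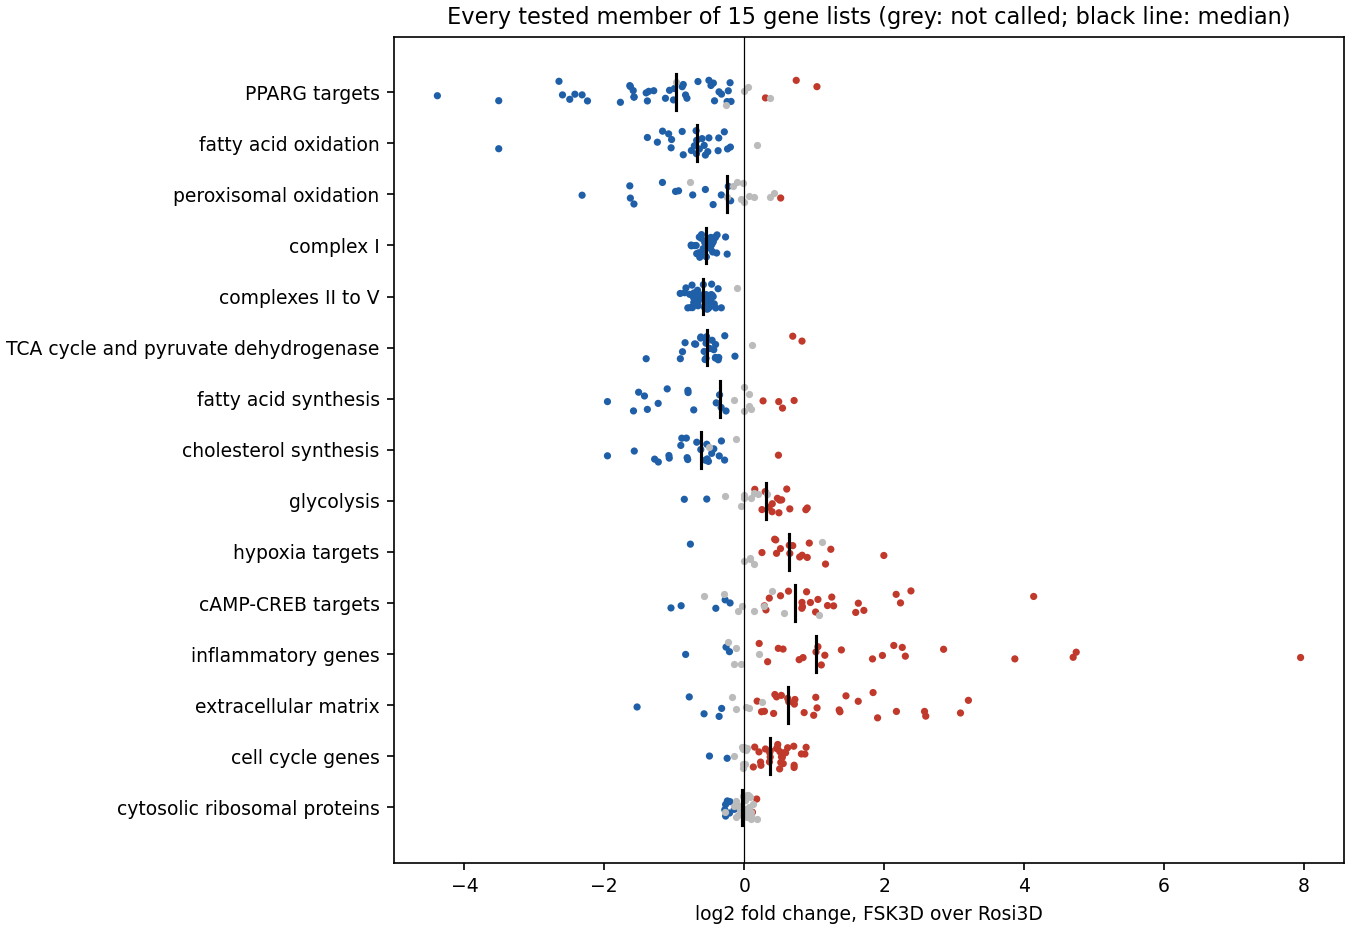
Log2 fold change of FSK3D over Rosi3D (x) for every tested member of 15 gene lists (y); red and blue points were called higher after forskolin or after rosiglitazone, grey points were not called, and the black line is the list's median. Points are spread vertically only to separate them. Complex I and complexes II to V form tight clusters left of 0 with medians of -0.54 and -0.58, while cAMP-CREB, inflammatory and matrix genes spread widely to the right.

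Extracellular matrix genes were higher in FSK3D for 26 of 36 tested and lower for 5, with a median log2 of 0.63. Against vehicle 16 were higher and 9 lower in FSK3D, and 9 higher and 22 lower in Rosi3D. Vcan, the large proteoglycan versican (at chr13:89655312-89742509 (- strand)), was at 2132, 2052 and 1969 CPM in FSK3D, 247, 253 and 223 in Rosi3D and 463, 447 and 488 in vehicle (log2 3.09 ± 0.07, edgeR adjusted p = 5.74e-20). Col14a1, a fibril-associated collagen, was at 13.5, 14.3 and 11.6 CPM against 1.196, 2.09 and 1.17 (log2 3.20 ± 0.20), and Spp1, osteopontin, at 652, 631 and 693 against 117, 108 and 106 (log2 2.58 ± 0.09). Vehicle lay between the treated groups for these 3 genes. Fbln2, fibulin 2, was at 2254, 2240 and 2144 CPM against 516, 549 and 404 (log2 2.18 ± 0.08), and Bgn, biglycan, at 1896, 1838 and 1709 against 929, 989 and 760.4 (log2 1.02 ± 0.08). Prg4, the lubricin gene whose exons overlap Tpr, was at 49.6, 42.6 and 41.5 CPM against 7.04, 7.39 and 7.90, both above vehicle at 2.78, 2.49 and 2.09 (log2 2.59 ± 0.11). The 5 that were lower were the elastin gene Eln (log2 -1.53 ± 0.59), all 3 listed chains of collagen VI, Col6a1, Col6a2 and Col6a3 (log2 -0.36 ± 0.04, -0.79 ± 0.05 and -0.57 ± 0.04), and Col8a1 (-0.32 ± 0.07).

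Matrix proteases and their inhibitors were higher in 16 of 26 cases and lower in 6 (median 0.35). Timp1, an inhibitor of matrix metalloproteinases, was at 35.1, 33.6 and 31.8 CPM in FSK3D and 3.78, 5.07 and 4.79 in Rosi3D (log2 2.94 ± 0.10, edgeR adjusted p = 8.75e-20), and FSK3D overlapped vehicle (37.0, 29.5 and 31.0). The metalloproteinases Mmp13 and Mmp3 were at log2 2.57 ± 0.31 and 2.40 ± 0.21, and Tll1, a procollagen-processing protease, was at 7.06, 6.51 and 6.58 CPM against 0.897, 0.651 and 0.856 (log2 3.01 ± 0.16). The pathways of Wnt, BMP and TGF-beta had 15 of 30 higher and 5 lower (Wnt5a, Wnt11, Rspo2, Dkk2 and Axin2; median 0.43). Sfrp1, a secreted Wnt antagonist, was at 41.7, 39.7 and 33.6 CPM against 8.97, 10.97 and 6.07 (log2 2.14 ± 0.18), and Grem1, a BMP antagonist, at 104, 105 and 91.7 against 27.8, 22.4 and 19.8 (log2 2.07 ± 0.10). Wnt10b, a Wnt ligand that restrains adipocyte formation, had 65 against 21 counts (ratio 4.57, 2.22 to 10.2), with vehicle higher than both, at 3.40, 2.00 and 2.31 CPM. Wnt11 was lower, at 0.653, 0.822 and 1.24 CPM against 3.15, 3.67 and 3.58 (log2 -1.88 ± 0.30).

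Markers of adipocyte progenitors were higher in FSK3D for 9 of 19 tested and lower for 4 (F3, Zfp423, Ebf1 and Ebf2), with a median log2 of 0.50. Dlk1, the preadipocyte factor Pref-1, had 66 counts over FSK3D and 4 over Rosi3D (ratio 24.3, 6.22 to 209), with vehicle at 1.30, 0.722 and 1.39 CPM beside 0.408, 1.23 and 1.21 in FSK3D. Ly6a, the stem cell antigen Sca-1, was at 259, 271 and 212 CPM against 83.6, 80.7 and 60.5 (log2 1.71 ± 0.18), and Cd24a at 21.9, 23.7 and 17.5 against 5.79, 7.57 and 4.40 (log2 1.83 ± 0.18). FSK3D overlapped vehicle for Dlk1 and Cd24a and was above vehicle for Ly6a (135, 108 and 119). Smooth muscle and myofibroblast genes were divided, 10 of 20 higher and 6 lower (median 0.17). Acta2, smooth muscle actin, was at 48.3, 51.3 and 45.1 CPM against 37.4, 39.8 and 36.2, both far below vehicle at 215, 209.7 and 218 (log2 0.35 ± 0.06). Des, desmin, was at 13.1, 12.95 and 15.8 CPM against 4.05, 4.32 and 5.88 (log2 1.58 ± 0.16), and Cnn1 and Myh11 differed by 1.09 ± 0.24 and -1.18 ± 0.20. Of 30 skeletal and heart muscle genes listed, 12 were tested. Mb and Casq2 were higher (Casq2 38 against 17 counts, ratio 3.30, 1.40 to 8.48), Acta1 was lower, and 9 were not called. Casq2 lost its call without FSK3D S11, FSK3D S12 or Rosi3D S13 (adjusted p = 0.0575, 0.0517 and 0.0712).

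Secreted adipokines and hormones were higher in 21 of 36 cases and lower in 5 (median 0.50), with Lcn2, Cfd, Igf1 and Nrg4 above and Fgf1, Fgf21, Angptl4, Adipoq and Vegfb (log2 -0.75) below. Lep, the hormone leptin, had 6 and 17 counts, too few for a difference to be detectable (ratio 0.521, 0.0898 to 2.12). Retn, resistin, was at 369, 373 and 418 CPM against 431, 410.0 and 417 and was not called (log2 -0.12, 95% interval -0.28 to 0.04). Iron and redox genes showed 6 of 26 higher and 11 lower (median -0.02). The share higher, 23.1%, was near the 22.5% of all tested genes, and the share lower was 42.3% beside 20.7%. Gpx3, the secreted glutathione peroxidase, was at 35.9, 39.1 and 32.3 CPM against 6.40, 7.71 and 6.07 (log2 2.42 ± 0.10, edgeR adjusted p = 1.23e-19), with FSK3D overlapping no Rosi3D library and vehicle at 29.7, 35.5 and 31.4. The iron exporter Slc40a1 was lower (log2 -0.87 ± 0.12), and so was the glutathione transferase Gsta4 (-0.82 ± 0.25).

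Cell cycle genes were higher in FSK3D for 28 of 39 tested and lower for 2 (Ccnd2 and E2f1, log2 -0.50 and -0.24), with a median log2 of 0.37. Both treatments were below vehicle, with 33 of 39 lower in FSK3D and 35 in Rosi3D, beside 4 and 3 higher. Ccnb1, a mitotic cyclin, was at 34.6, 35.6 and 29.9 CPM in FSK3D, 18.1, 18.4 and 17.3 in Rosi3D and 44.7, 40.0 and 50.7 in vehicle (log2 0.88 ± 0.08, edgeR adjusted p = 4.79e-11). Ccnb2 and the kinetochore gene Cenpf had the same order (log2 0.82 ± 0.08 and 0.71 ± 0.06). E2f2, a transcription factor of the S phase, was 1 of the 4 above vehicle in FSK3D, at 17.5, 13.9 and 16.6 CPM against 7.35, 7.94 and 6.13 (FSK3D over Rosi3D log2 0.87 ± 0.12).

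The unfolded protein response had 15 of 25 genes higher in FSK3D and 4 lower (median 0.23). Pdia3, an isomerase of disulfide bonds, was at 343, 351 and 313 CPM against 217, 210.2 and 213, both below vehicle (433, 412 and 415, log2 0.65 ± 0.05). Trib3, a pseudokinase induced by stress, was at 59.8, 64.4 and 69.9 CPM against 41.5, 37.6 and 40.6, both above vehicle (14.7, 20.5 and 17.1, log2 0.70 ± 0.09), while the cochaperone Dnajb9 and Crebrf were lower (-0.64 ± 0.05 and -0.81 ± 0.06), as were Atf6 and Herpud1 (-0.33 and -0.17). Genes that ATF4 controls, or that serve amino acid supply, had 3 of 30 higher (Trib3, Slc1a4 and Slc7a11) and 13 lower (median -0.14), and without FSK3D S11 5 were higher. Phgdh, the first enzyme of serine synthesis, was at 81.5, 81.9 and 98.4 CPM against 227, 214 and 235 (log2 -1.36 ± 0.06), and Slc1a4, a transporter of neutral amino acids, at 64.6, 62.8 and 66.8 against 36.3, 34.8 and 31.2 (log2 0.92 ± 0.06).

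Clock genes, chromatin enzymes and ribosomal proteins had medians near that of all genes. Of 20 clock genes 7 were higher and 4 lower (Cry1, Hlf, Bhlhe41 and Clock; median 0.11), and without Rosi3D S13 only 4 were higher. Bhlhe40, a clock repressor that hypoxia and cAMP can induce, was at 78.1, 76.3 and 92.8 CPM against 25.6, 26.7 and 29.2 (log2 1.61 ± 0.13), and Cry1 differed by -0.60 ± 0.08. Npas2 was called (log2 0.62 ± 0.23, edgeR adjusted p = 0.0283) but lost the call without FSK3D S10, FSK3D S12, Rosi3D S13 or Rosi3D S14 (adjusted p = 0.176, 0.063, 0.116 and 0.0617). Chromatin enzymes had 13 of 39 higher and 7 lower with a median of 0.00. The histone deacetylase Hdac5 was at 40.7, 42.9 and 43.5 CPM against 73.4, 73.0 and 74.3 (log2 -0.80 ± 0.06), and Suv39h2, Sirt5 and Dnmt3a were at 0.49 ± 0.14, -0.50 ± 0.16 and -0.47 ± 0.06. Suv39h2 and Sirt5 were not called without FSK3D S11 (adjusted p = 0.0659 and 0.0673). Cytosolic ribosomal proteins had 2 of 38 higher (Rpl7 and Rpl10) and 8 lower (median -0.03), near or below the shares over all genes. The 4 with the largest differences, Rpl11, Rps19, Rps9 and Rpl18, were at log2 -0.28 ± 0.08, -0.27 ± 0.07, -0.27 ± 0.06 and -0.24 ± 0.08. The number called lower was 5 without FSK3D S11 or without Rosi3D S13, and 13 without FSK3D S12.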

How the data were processed

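Per the labels' protocols, ribosomal RNA had been removed from the RNA of the 15 libraries, 3 in each of 5 groups. The values are unnormalized whole-number counts of reads per gene, as the authors deposited them. The submitters' processing notes name fastp, STAR, featureCounts and GRCm38 (mm10). The sources used here give no versions, annotation, strand or handling of shared reads. Overlapping genes and near-identical copies are therefore uncertain. Low counts were mostly even, as when both mates of a pair are counted, so ratios of low counts used counts divided by 2. Such ratios carry an exact binomial 95% interval, and these and the floor of 3 halved counts over a group cover counting error only. Columns carry their group and a running number (S1 to S15), which differs from the labels' replicate number, so no column was paired with another.

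Genes passing filterByExpr were fitted in R 4.3.3 with edgeR 4.0.16 (TMM scaling, robust quasi-likelihood fit, a mean for each of the 5 groups over all 15 libraries, leaving 10 residual degrees of freedom). Tests were two-sided with Benjamini-Hochberg adjustment over 14421 genes, and calls are genes with an adjusted p below 0.05. Levels are TMM-scaled CPM. The standard error (SE) was taken as the log2 fold change over the root of its F statistic, without sign. The script was tested on simulated counts. Alternatives used DESeq2 1.42.0, other scalings, filters and thinning, and each library left out in turn.

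Genes were named by rule: the 12 largest rises and 12 largest falls among genes called at 2-fold or more, with a mean of at least 1 CPM in the higher group and no overlap of libraries, without predicted gene models; up to 4 called members per list with the largest difference; fixed adipocyte genes; and the 10 called genes with the largest difference in mean CPM each way. The comparison, the 46 lists (45 with a tested member) and the tests were chosen with earlier results of these data known. Positions come from GENCODE vM21, which matched 23384 symbols (95.8%), and promoter sequences from RefSeq (GRCm38.p6). Some genes that the rule takes are not reported here.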

Additional observations from a re-analysis of the deposited data

How the results depend on the processing

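The counts of called genes, 3238 higher and 2978 lower, stayed within 1.5 times under every alternative that gives them. They ran from 2908 to 3377 higher and from 2815 to 3120 lower over DESeq2, other scaling, other filters, thinned libraries, halved counts and a fit of the 6 libraries alone. Leaving out a library gave 2841 to 3076 higher and 2604 to 2938 lower, and for differences of at least 2-fold 602 to 669 higher and 382 to 408 lower. A test of whether a fold exceeds 2, rather than of any difference, called 309 higher and 147 lower in place of 649 and 398, since it asks for more than the size estimate. Of the 45 list medians, 2 to 8 moved by at least their SD between libraries of a group when a library was left out. With a filter at 1 CPM 6 moved, while with DESeq2 all 45 stayed within that SD. Differences of 4 genes that were not called changed sign. Fasn did so with library size alone (log2 0.0103), and ran from -0.121 to 0.0517 without a library. Cebpa did so with library size alone (0.00834) and thinned libraries (0.000226), and ran from -0.126 to 0.049. Car4, a low gene, did so without the filter (-0.0676) and with DESeq2 (-0.217), and ran from -4.28 to 1.56. Atp5l ran from -0.267 to 0.123. Areg, called on 5 counts, lost its call with thinned libraries (adjusted p = 0.147), with halved counts (0.0626) and in 4 of 6 fits without a library. Pecam1, an endothelial marker, lost it without the filter (0.0763) and in 4 of those 6. Calls of other genes also rested on single libraries (edgeR adjusted p without the library). Without FSK3D S10 they were lost for E2f1 (0.0712), Eln (0.0775), Herpud1 (0.102), Pck1 (0.0628), Scd4 (0.0512), Serpina3g (0.106) and Slc7a11 (0.101). Without FSK3D S11 this held for Rpl18 (0.0991) and Tomm20 (0.0661), and without FSK3D S12 for Clock (0.101), Ifit3 (0.0694), Ifit3b (0.0794), Rpl10 (0.0510) and Timm50 (0.0983). Without Rosi3D S14 it held for Rpl7 (0.196) and again for Slc7a11 (0.218), Ifit3 (0.0524) and Ifit3b (0.0660). Without Rosi3D S15 it held for Adcy7 (0.0728) and Krt19 (0.0567). In all, Eln lost its call in 5 of the 6 fits without a library and Rpl7 and Herpud1 in 4, and Rpl7 lost it with DESeq2 too (0.0517). With the 6 libraries fitted alone, F3 (0.0623) and Rn45s (0.0653) lost their calls, while Hcar1 (0.0139), Kcnk3 (0.0447), Sult1a1 (0.0449) and Cox7a1 (0.0353) gained one. No paired analysis was possible because the columns carry no replicate number that ties libraries across groups. Groups of 3 libraries are too small to single out an outlying library. Depth limits genes under about 1 CPM, for which ratios of counts carry wide intervals.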

Other observations

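The series also holds forskolin libraries at 4 h and 1 day. They entered the fit, with its filter, scaling and spread, but not the contrast between FSK3D and Rosi3D. Levels at these times are given for some of the genes named above, as mean CPM ± SD over 3 libraries with no test. These genes were chosen here after their values were seen. Nr4a3, an immediate early gene, was at 435 ± 22.2 after 4 h and 24.3 ± 5.58 after 1 day, against 4.47 ± 0.943 after 3 days, 2.18 ± 0.204 in vehicle and 0.973 ± 0.455 in Rosi3D. Crem was at 93.8 ± 2.32, 32.5 ± 2.82 and 21.8 ± 1.81 at the 3 times, and Il1rl1 at 2911 ± 64.3, 1662 ± 167 and 1167 ± 96.4. For these 3 genes the 3-day level was the lowest of the forskolin times. Areg, so low at 3 days that no fold could be given, was at 5.58 ± 0.931 after 4 h. Lcn2 and Prg4 were highest after 1 day, at 63.0 ± 3.47 and 199 ± 15.8.

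Other genes were highest at 3 days. Mb was at 2.81 ± 0.679 after 4 h, 6.45 ± 0.930 after 1 day and 47.5 ± 5.70 after 3 days, and C3 at 710.0 ± 6.64, 927 ± 43.6 and 2093 ± 209. Cidea was at 5.47 ± 1.29, 2.85 ± 0.919 and 13.3 ± 2.34, still under 40.7 ± 7.53 in Rosi3D. Ucp1 had no such order, at 8.42 ± 0.648 after 4 h, 1.15 ± 0.0834 after 1 day and 5.25 ± 0.939 after 3 days. Angptl4 and Fgf21, far lower in FSK3D than in Rosi3D at 3 days, had been at 614 ± 32.0 and 5.07 ± 0.560 after 4 h of forskolin, beside 745 ± 17.1 and 4.55 ± 0.420 after 3 days of rosiglitazone. No contrast between the earlier times and Rosi3D was tested.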
